A study of Homo sapiens with 3 samples.

Results

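Binding of SOX4 and STAT6 was examined at 5 genes that break down pyrimidines, fluoropyrimidines and ester prodrugs: DPYD, DPYS, UPB1, CES1 and CES2. They were listed by function, out of 20037 protein-coding genes, with earlier results of these data known. Each was searched for peaks that overlapped the gene or the 1000 bp on either side of it. DPYD and CES1 held peaks in both lists, together 34 of 4513 peaks in the SOX4 list and 27 of 1078 in the STAT6 list, while DPYS, UPB1 and CES2 held none. The profiles came from Hep3B, an established hepatocellular carcinoma cell line, grown in medium with fetal bovine serum, with no treatment or genetic change named in the labels. CUT&RUN, in which a nuclease tethered to an antibody releases nearby DNA (the labels call the assay ChIP but name a CUT&RUN kit), gave a SOX4 library, a STAT6 library and an IgG library that measures background. With 1 library per antibody there is no replicate check and no p-value is given. The same IgG library served as control for both lists, and IgG peaks were not analysed here. The number of reads per library is unknown, and peak lists hold no expression by which the cell line's markers could be checked.

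Uracil and thymine are broken down in the liver in a chain of reactions. Dihydropyrimidine dehydrogenase, the product of DPYD, reduces the ring in the rate-limiting step, dihydropyrimidinase (DPYS) opens it, and beta-ureidopropionase (UPB1) releases a beta-amino acid. The same enzymes inactivate the drug 5-fluorouracil. Carboxylesterases cleave ester bonds in drugs. CES1 is the main carboxylesterase of the liver and acts on the 5-fluorouracil prodrug capecitabine, and CES2, abundant in the intestine, also acts on irinotecan.

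The RefSeq promoter table of GRCh38.p14 held start sites for 3 of the 5 genes, and 2 stretches are shown, the start region that lay under peaks among these 3 genes (DPYD) and the window with a match to a searched motif (CES2). The DPYD stretch is the 250 bases before the outermost of its 2 listed start sites, chr1:97921060-97921309 on the minus strand. It lay wholly inside a SOX4 peak, and its 79 capitals mark the bases inside the STAT6 peak.
DPYD: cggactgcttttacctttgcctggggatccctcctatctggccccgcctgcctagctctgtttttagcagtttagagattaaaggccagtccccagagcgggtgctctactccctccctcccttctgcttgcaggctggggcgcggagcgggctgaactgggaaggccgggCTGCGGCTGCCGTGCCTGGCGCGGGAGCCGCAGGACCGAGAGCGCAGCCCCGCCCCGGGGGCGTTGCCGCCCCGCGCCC
The CES2 stretch is the 68 bases between the neighbouring gene CIAO2B and the outermost of the 2 start sites of CES2, chr16:66934403-66934470 on the plus strand. Its capitals mark a match to a STAT6 motif, which ends 39 bases before the start site.
CES2: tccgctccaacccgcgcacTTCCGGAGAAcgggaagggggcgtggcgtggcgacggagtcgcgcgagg

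Both strands were searched for the SOX cores ACAAAG and ACAATG and for the STAT6 motif TTCNNNNGAA, which do not overlap each other in these stretches. Of the 35116 promoter windows in the table, each 300 bases from 250 before to 50 after a start, ACAAAG was found in 16.1%, ACAATG in 10.8% and TTCNNNNGAA in 6.44%. The DPYD stretch, with a GC content of 68.8%, held 0 matches, as did the whole window around that start, and the CES2 stretch held 1, which was also the only match in its window. The match was to TTCNNNNGAA. The other peak-free windows, at UPB1 and at the second start of CES2, held 0 matches, and neither SOX core was found in any window of the 3 genes. A SOX4 peak overlapped 0.555% of all promoter windows and a STAT6 peak overlapped 0.310%.

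To place the members among all genes, peaks were counted for every protein-coding gene. A SOX4 peak was found at 6.35% of the 20037 genes, a STAT6 peak at 1.08% and a peak of each list at 1.03%. Of the 5 members, 2 held peaks of each list. The members make up 0.0776% of the length of all protein-coding genes, and their peaks were 0.753% of the SOX4 list and 2.51% of the STAT6 list. All of these peaks lay at DPYD and CES1. The genes were chosen with earlier results of these data known, so these shares describe the choice and are no evidence of enrichment. In the SOX4 list, 80.4% of genes with a peak held 1 peak. DPYD, with 23, had the second highest number of all genes, and CES1, with 11, ranked 13. In the STAT6 list, DPYD ranked 8 with 17 peaks, and CES1 ranked 17 with 10, in a tie of 5 genes. The plot of peaks per gene shows these counts beside the other genes of both pathways.

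**Figure D1:**
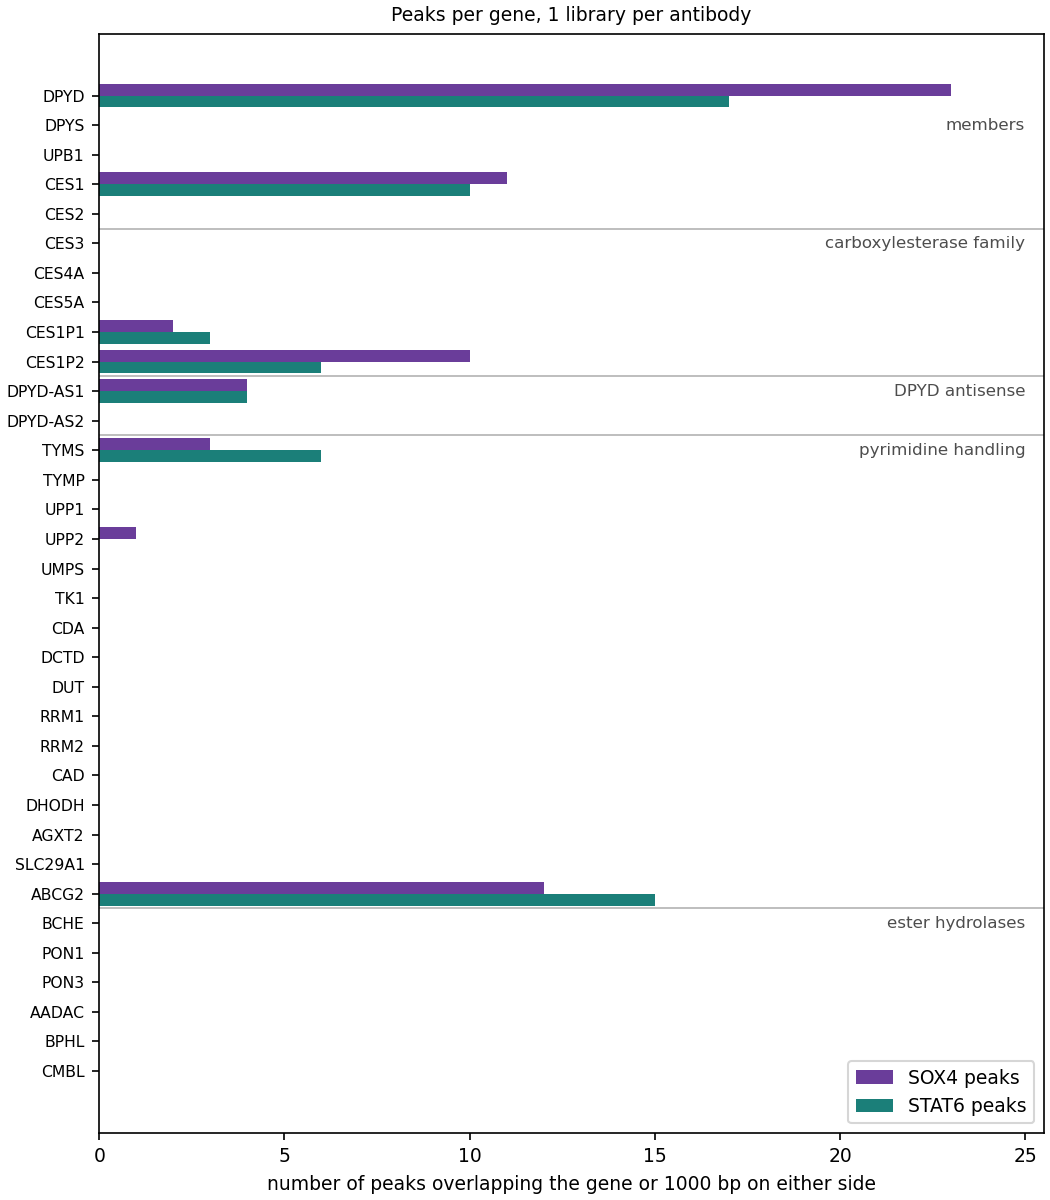
Bars give the number of SOX4 and STAT6 peaks (horizontal axis) that overlap each gene or the 1000 bp on either side, for the 5 members and 4 lists of related genes. DPYD (23 and 17) and CES1 (11 and 10) hold peaks of both antibodies, and DPYS, UPB1 and CES2 hold none.

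DPYD spans 843 kb of chromosome 1 (97077743 to 97921059, minus strand), and its 23 SOX4 peaks reached from one end of the gene to the other. Fold enrichment over IgG, a ratio given for each peak, ranged from 28.1 to 131 with a median of 71.7. The median of the whole SOX4 list was 5.88, and all 23 peaks lay above it. The lowest of them exceeded 83.4% of the list. The 17 STAT6 peaks had fold enrichments of 4.01 to 16.8 with a median of 6.80, close to the STAT6 list's median of 7.27, and 8 of them lay above that median. Within each list, DPYD thus stood high for SOX4 and in the middle for STAT6. The median rank of its peaks was 472 of 4513 for SOX4 and 577 of 1078 for STAT6. The SOX4 list is longer, so a similar rank stands higher in it. The 2 fold scales cannot be compared with each other, since depth is unknown.

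The highest SOX4 peak of DPYD lay at its 3′ end, from 97077014 to 97079780, with a fold enrichment of 131, a −log10 q of 1366 and rank 138 in the list. Second came 97234084 to 97235730, with a fold of 125 and a −log10 q of 1205, and then 97449249 to 97450865, with 98.8 and 1091. The −log10 q is the peak's significance after correction for multiple testing, as deposited. All 3 lay in the part of the gene farther from its start. The lowest were from 97381750 to 97383056 (fold 28.1, −log10 q 207.6), from 97372890 to 97374315 (33.1 and 281) and from 97739780 to 97741121 (35.4 and 233).

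The highest STAT6 peak of DPYD also lay at the 3′ end, from 97077470 to 97079302, with a fold enrichment of 16.8, a −log10 q of 52.2 and rank 63. The peaks from 97573399 to 97574259 (fold 14.7, −log10 q 42.1) and from 97234614 to 97235261 (13.9 and 36.3) followed. The lowest were from 97306109 to 97306345 (fold 4.01, −log10 q 3.38), from 97883035 to 97883353 (4.74 and 4.38) and from 97595061 to 97595339 (4.84 and 4.85). These 3 are the DPYD peaks that a −log10 q of at least 5 removes, which leaves 14.

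Both ends of DPYD carried peaks. At the start site, SOX4 enrichment from 97920159 to 97921688 was 73.0-fold with a −log10 q of 662, and the summit lay 137 bp downstream of the start. The STAT6 peak from 97920640 to 97921138 had a fold of 5.42 and a −log10 q of 7.20, with its summit 82 bp downstream. The start site was not the highest site, as 10 SOX4 peaks and 12 STAT6 peaks of the gene had a higher fold enrichment. At the other end the SOX4 summit lay 0.804 kb and the STAT6 summit 1.03 kb inside the gene.

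Peaks were absent from the surroundings of DPYD. Flanks as long as the gene, which began 5000 bp beyond each end, held 0 peaks of either list. On the lower-coordinate side 1609 kb passed before the next SOX4 peak, of fold 3.28, and on the other side 2037 kb, before one of fold 3.46. The next STAT6 peaks were 37151 kb and 5783 kb away. Inside the gene, SOX4 peaks covered 4.18% of the sequence and STAT6 peaks 1.16%.

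Along DPYD the spacing was uneven. Distances between the summits of neighbouring SOX4 peaks ranged from 1.83 kb to 94.6 kb, with a median of 29.0 kb over 22 distances, and their SD was 0.797 times their mean. Of these, 5 were under 10 kb and 8 over 50 kb. With the gene cut from its lower-coordinate end into 4 equal parts, these held 5, 4, 9 and 5 SOX4 peaks. The densest run was 4 peaks between 496.1 and 517.4 kb from that end, where the closest summits were 1.83 kb apart. The widest interval lay between 20.8 and 115.4 kb. For STAT6 the median distance was 35.8 kb, with a range of 2.02 to 161.6 kb, and the 4 parts held 5, 2, 7 and 3 peaks.

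**Figure D2:**
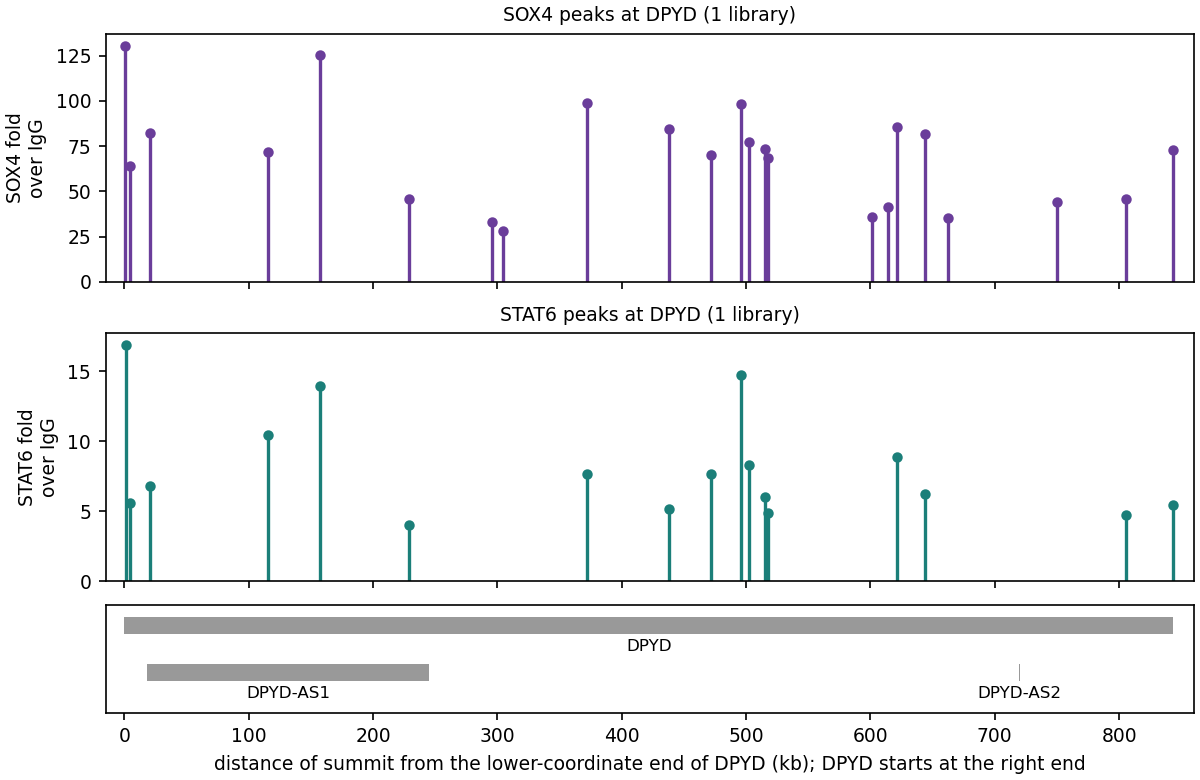
SOX4 (top) and STAT6 (middle) peaks along DPYD, each stem at the distance of the summit from the lower-coordinate end in kb, with the fold enrichment over IgG as its height on separate scales, and the genes below. The 23 SOX4 and 17 STAT6 peaks run from end to end with uneven gaps, and each STAT6 stem stands where a SOX4 stem does.

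Set side by side, the peaks of both lists lay at the same places in DPYD. All 17 STAT6 peaks fell wholly inside a SOX4 peak, with summits 10 to 229 bp apart and a median of 61 bp. Over the whole STAT6 list 78.7% of peaks overlapped a SOX4 peak and 76.6% fell wholly inside one, with a median of 73 bp between summits of overlapping peaks, so such nesting was common across the list. Both lists share the IgG library as control, so the positions are not independent evidence and this count is a description. Read from the lower-coordinate end, the SOX4 folds were 131, 63.9 and 81.9 in the first 21 kb, and the STAT6 folds at these sites were 16.8, 5.62 and 6.80. At 115.4, 157.1 and 228.5 kb the SOX4 folds were 71.7, 125 and 45.6 and the STAT6 folds 10.4, 13.9 and 4.01. At 496.1 and 502.1 kb they were 98.1 and 77.2 for SOX4 and 14.7 and 8.27 for STAT6. The other 6 SOX4 peaks, at 295.8, 304.7, 601.4, 614.0, 662.7 and 750.4 kb, had no STAT6 peak, and their folds of 28.1 to 44.1 were the lowest 6 of the gene. The 17 with a STAT6 peak had folds of 45.6 to 131.

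The SOX4 peaks of DPYD resembled each other in shape. Their widths ranged from 1307 to 2767 bp with a median of 1524 bp, against 891 bp over the list. In 22 of the 23 the summit lay between 40% and 60% of the way across the peak, against 59.7% of the SOX4 list. The STAT6 peaks were narrower, with widths of 237 to 1833 bp and a median of 554 bp, against 576.5 bp over the list, and 7 of the 17 summits lay in that middle part, against 41.6% of the list.

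DPYD was also set beside the 315 protein-coding genes of 500000 bp or longer, among which 47.9% held a SOX4 peak, 2.22% a STAT6 peak and 2.22% both. The highest number at any other gene of this length was 10 peaks in each list, at ASIC2, an acid-sensing ion channel gene. In the 308 long genes without a STAT6 peak, 245 SOX4 peaks had a median fold enrichment of 5.61 and a median width of 844 bp, and 10 of them reached the 28.1 of the lowest DPYD peak. The 6 other long genes with a STAT6 peak held 18 SOX4 peaks with a median fold of 78.1 and a median width of 1566 bp, near the values of DPYD. Their folds ranged from 6.56 to 163.8, and 10 of the 18 peaks lay in ASIC2. Of SOX4 peaks with at least the lowest DPYD fold 80.5% overlapped a STAT6 peak, against 14.2% of all. Choosing genes by a STAT6 peak therefore also favours high SOX4 folds. No test was made, because each list is 1 library.

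DPYD-AS1, a long non-coding RNA gene on the opposite strand, overlaps 227 kb of DPYD. Of the DPYD peaks, 4 SOX4 peaks (folds 45.6 to 125) and 4 STAT6 peaks (4.01 to 13.9) also overlap DPYD-AS1, and the lists give no strand by which they could be assigned to one of the genes. DPYD-AS2, a further antisense gene, held no peak. The position of DPYD peaks relative to exons was not analysed here.

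CES1 is much shorter, 30.2 kb on chromosome 16 (55802851 to 55833096), and its peaks nearly filled it. Its 11 SOX4 peaks covered 68.3% of the gene and its 10 STAT6 peaks 33.4%. Per 100 kb of gene this was 36.4 SOX4 peaks, against 2.73 at DPYD, and 33.1 STAT6 peaks, against 2.02. SOX4 fold enrichment ranged from 4.92 to 217 with a median of 139.8, and 10 of the 11 peaks were above the list median. STAT6 fold enrichment ranged from 5.51 to 21.5 with a median of 13.9, and 9 of the 10 were above that of their list. Unlike at DPYD, the median STAT6 peak of CES1 also stood high, above 85.7% of its list.

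The highest SOX4 peak of CES1 (55809756 to 55811801) reached a fold of 217 and a −log10 q of 2365, rank 5 in the list. Next, 55825432 to 55829705 had a fold of 205 and a −log10 q of 2209, and that from 55807640 to 55809279 had 155.4 and 1573. The lowest were from 55830601 to 55831253 (fold 4.92, −log10 q 9.29), from 55832349 to 55833752 (72.3 and 600.4) and from 55805620 to 55807127 (73.4 and 612). The lowest peak stood apart from the others, with a rank of 2674 and a width of 653 bp, and a fold enrichment of at least 5 would remove it.

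The highest STAT6 peak of CES1, from 55827499 to 55829232, had a fold enrichment of 21.5, a −log10 q of 69.6 and rank 12. The peaks from 55816605 to 55817323 (fold 15.6, −log10 q 46.0) and from 55819253 to 55821807 (15.5 and 52.5) came next. The lowest were from 55825946 to 55826414 (5.51 and 8.10), from 55832806 to 55833250 (7.59 and 12.8) and from 55812626 to 55813310 (12.01 and 28.7). The other 4 lay between 13.6 and 13.9, a narrow range.

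As at DPYD, both ends of CES1 had peaks. The SOX4 and STAT6 summits lay 0.115 and 0.143 kb inside the lower-coordinate end, with folds of 154.6 and 13.9. At the higher-coordinate end they lay 0.039 and 0.040 kb inside, with folds of 72.3 and 7.59, so that the lower-coordinate end had the higher value in each list. The promoter table has no entry for CES1, so neither end was identified here as its start, and the stronger end should not be read as the promoter.

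Peaks were spaced more evenly along CES1 than along DPYD, in the sense that the SD of the SOX4 distances was 0.316 times their mean, over 10 distances. The measure is not like for like. SOX4 peaks with a median width of 1624 bp covered 68.3% of CES1, which leaves little room for uneven distances, against 4.18% of DPYD. The distances ranged from 2.09 to 4.43 kb with a median of 2.64 kb. For STAT6 they ranged from 1.71 to 5.46 kb with a median of 2.51 kb. Neighbouring SOX4 peaks were separated by 351 bp at the least and 2.37 kb at the most, and widths ran from 653 to 4274 bp. Where peaks nearly touch, their number depends on where the peak caller divides a region, so the covered share describes CES1 better than the count.

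**Figure D3:**
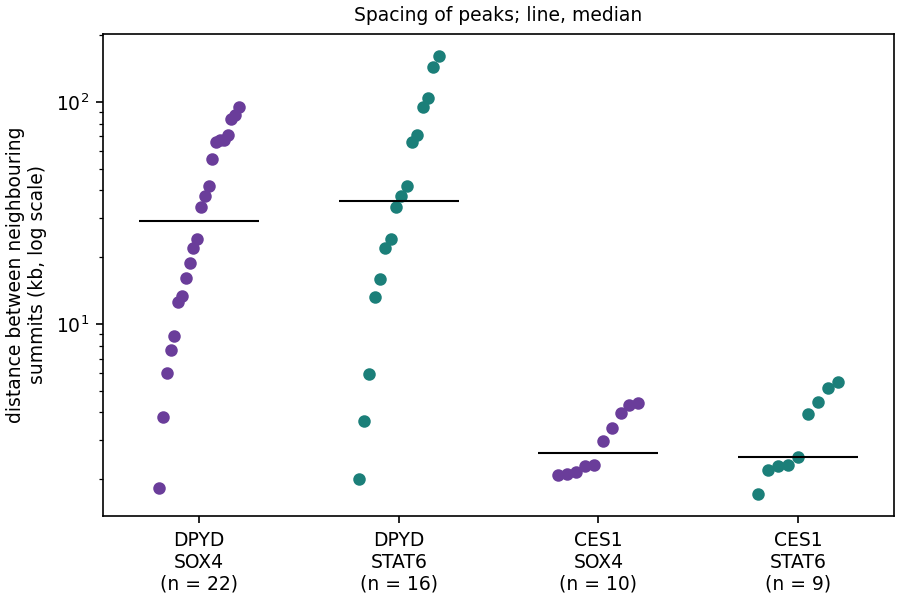
Distances between the summits of neighbouring peaks (vertical axis, kb, log scale), 1 point per distance, for DPYD and CES1 in the SOX4 and STAT6 lists, with the median as a line. The CES1 distances lie between 1.71 and 5.46 kb, whereas those of DPYD run from 1.83 to 161.6 kb.

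All 10 STAT6 peaks of CES1 fell wholly inside a SOX4 peak, with a median distance between summits of 17.5 bp, against the 76.6% of the whole list given above. The SOX4 peak from 55825432 to 55829705 held 2 of them, and for the lower of these the summits were 1786 bp apart. The 2 SOX4 peaks without a STAT6 peak had folds of 4.92 and 73.4, and the other 9 had 72.3 to 217, so the ranges overlapped. Over both genes, 27 of 27 STAT6 peaks overlapped a SOX4 peak (100%, exact Clopper-Pearson 95% interval 87.2% to 100%), and 26 of 34 SOX4 peaks overlapped a STAT6 peak (76.5%, 58.8% to 89.2%). Of all SOX4 peaks 14.2% overlapped a STAT6 peak, and of the 748 with at least the lowest fold of DPYD 80.5% did, a share near that of the members. These intervals cover counting error over peaks alone and treat neighbouring peaks as independent, and the shared IgG control applies here too.

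CES1 lies in a row with related sequences, and peaks were not limited to the gene. CES1P2, a transcribed pseudogene of 25.3 kb, held 10 SOX4 peaks with folds of 29.2 to 103.9 and 6 STAT6 peaks with 4.74 to 8.85, and SOX4 peaks covered 59.5% of it. CES1P1, a pseudogene of 14.3 kb between CES1P2 and CES1, held 2 SOX4 peaks (4.37 and 67.2) and 3 STAT6 peaks (4.42 to 6.32), with 7.30% covered in each list. The 27.9 kb between CES1P1 and CES1 held 3 SOX4 peaks (8.93 to 129) and 3 STAT6 peaks (4.74 to 13.6). The median SOX4 fold was 139.8 in CES1, 92.8 between CES1P1 and CES1, 35.8 in CES1P1 and 63.9 in CES1P2. The median STAT6 folds were 13.9, 12.7, 5.06 and 5.69 in the same order, so that the stretch beside CES1 came close to CES1 for STAT6. The pseudogenes are copies of CES1, and how reads that match several copies were placed is not given in the sources used here, so the assignment of peaks among them is uncertain.

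On the other side the peaks stopped at the end of CES1. No summit lay in the 13.1 kb between CES1 and CES5A, and CES5A, a related gene of 109.9 kb, held no peak. On this side the distance from CES1 was 441 kb to the next SOX4 peak, of fold 3.80, and 15642 kb to the next STAT6 peak.

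**Figure D4:**
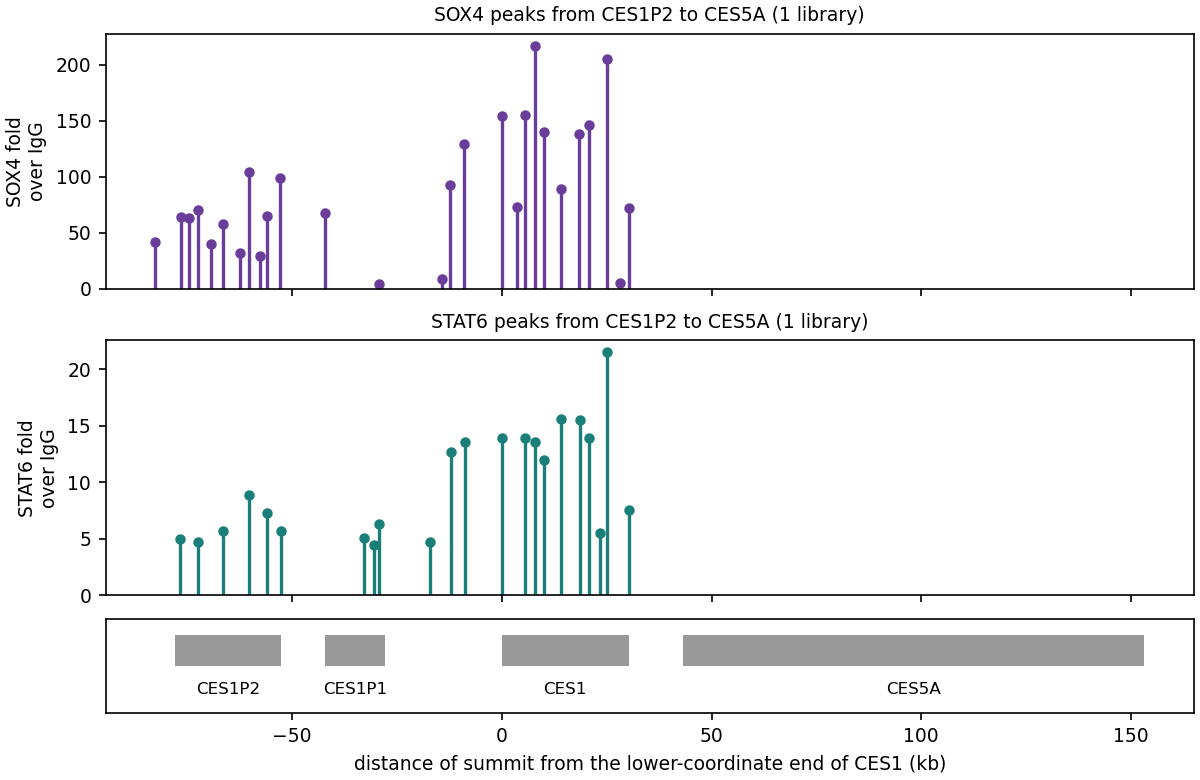
SOX4 (top) and STAT6 (middle) peaks from CES1P2 to CES5A, each stem at the distance of the summit from the lower-coordinate end of CES1 in kb, with the fold enrichment over IgG as its height on separate scales, and the genes below. The tallest stems, 217 for SOX4 and 21.5 for STAT6, stand in CES1, shorter ones stand in CES1P2, and none stands between CES1 and the end of CES5A.

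CES2, the other carboxylesterase of the set, lies elsewhere on the chromosome of CES1 (66934471 to 66945096, 10.6 kb) and held no peak. The distance to its nearest SOX4 peak (65812946 to 65814013, fold 8.57) was 1120 kb, and to its nearest STAT6 peak (71475445 to 71476099, fold 13.6) 4530 kb. Flanks of its own length held 0 peaks, and the carboxylesterase genes CES3 (66961266 to 66975149) and CES4A (66988589 to 67010417) held none either. Of the 5 other genes and pseudogenes of the carboxylesterase family, 2 held peaks, the pseudogenes CES1P1 and CES1P2 on the lower-coordinate side of CES1. CES3, CES4A and CES5A are protein-coding, as is CES2. Over all protein-coding genes 6.35% held a SOX4 peak and 1.08% a STAT6 peak, so holding none is the usual case. No such share was computed for pseudogenes.

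The enzymes that act after DPYD in pyrimidine breakdown held no peak. This too is the usual case, at 6.35% of protein-coding genes with a SOX4 peak and 1.08% with a STAT6 peak. For UPB1 on chromosome 22 (24495332 to 24528390) the distance was 485 kb to the nearest SOX4 peak (24009340 to 24010159, fold 5.198) and 4525 kb to the nearest STAT6 peak (19966673 to 19970254, fold 14.3). For DPYS on chromosome 8 (104379431 to 104467055) the distance was 165.5 kb to the nearest SOX4 peak (104632589 to 104633417, fold 5.29) and 15333 kb to the nearest STAT6 peak (fold 3.55). A margin of 3000 bp in place of 1000 bp gave no peak at DPYS, UPB1 or CES2. With the nearest peaks 165.5 kb or farther away, it could give none. A gene without a peak in these lists had no call past the authors' threshold, and at unknown depth this does not show that the factor was absent.

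Most other genes of pyrimidine handling held no peak, which is also the usual case over all protein-coding genes. Of those, 6.35% held a SOX4 peak, 1.08% a STAT6 peak and 1.03% both, against 3, 2 and 2 of the 16 genes listed here. Of 16 genes, 13 held no peak, among them the uridine phosphorylase UPP1, the thymidine phosphorylase TYMP, the cytidine deaminase CDA and the orotate-processing enzyme UMPS. TYMS, the thymidylate synthase that 5-fluorouracil inhibits, held 3 SOX4 peaks (folds 112.6 to 231.6) and 6 STAT6 peaks (6.64 to 18.9). ABCG2, a drug efflux transporter, held 12 SOX4 peaks (50.5 to 147) and 15 STAT6 peaks (4.26 to 16.8) over 141 kb. UPP2 held 1 SOX4 peak with a fold of 3.37 and no STAT6 peak. Of 6 other hydrolases of ester drugs, BCHE, PON1, PON3, AADAC, BPHL and CMBL, none held a peak in either list. At the shares over all genes given above, this is no trait of these hydrolases.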

How the data were processed

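CUT&RUN DNA of Hep3B cells was sequenced, 1 library per antibody and 1 with IgG. The submitters' notes name Partek, BWA and hg38, and the peak caller, the threshold it used and the placement of reads matching several positions are not given in the sources used here. The authors deposited 1 peak list per antibody, called against IgG, with the fold enrichment (a ratio) and the −log10 p and −log10 q of each peak. The deposited display score, 10 times the −log10 q in whole numbers, was not used. The lowest −log10 q was 1.31 for SOX4 and 1.35 for STAT6. Genes and promoters came from RefSeq tables of GRCh38.p14, the same assembly. A peak counted at a gene when it overlapped it or 1000 bp on either side, and positions are 1-based. The counting was tested on simulated data. Named peaks were the 3 highest and 3 lowest by fold at each gene with over 5. The genes, lists and this rule were chosen with earlier results of these data known, so a share above the background is a description. Exons and reads were not analysed here, and the planned distance to exons was not run. Alternatives were other margins, summit placement, thresholds and definitions of overlap. Python 3.11.15, numpy 2.4.6, pandas 2.3.3, scipy 1.17.1 and matplotlib 3.10.9 were used.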

Additional observations from a re-analysis of the deposited data

How the results depend on the processing

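Over 12 results, 28 alternatives were run, and 27 stayed within a factor of 1.5 or, for the share of STAT6 peaks that overlap a SOX4 peak, within its interval. Some of the 27 could not move. The lowest −log10 q at CES1 was 9.29 for SOX4 and 8.10 for STAT6, and at DPYD 207.6 for SOX4. A cut at 5 therefore removed none of these peaks, and their unchanged values are no check. The exception was that share, which was 100% as reported and 22.2% if sharing meant an overlap over 50% or more of each peak, a definition that STAT6 peaks lying inside wider SOX4 peaks can seldom meet. It was 92.6% with summits within 200 bp. Margins of 0 and 3000 bp and placement by summit changed no count at any of the 5 genes. The wider margin is no check either. It could add no peak, as the nearest peak outside lay 8.04 kb from CES1 and farther from the other genes. With 1 library per antibody and unknown depth, a difference between the lists cannot be told apart from a difference in depth. No paired analysis was possible because neither list has a second library.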

Other observations

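A minority of fold enrichments in each list were whole multiples of a fixed step, with a larger share at CES1 than at DPYD. At CES1, 3 STAT6 peaks had the same fold enrichment of 13.9, and so did 1 at DPYD. Of the STAT6 folds, 7 of 10 at CES1 and 4 of 17 at DPYD were whole multiples of 0.316 within 0.01 of a step, against 29.5% of the STAT6 list. These corresponded to 24 to 68 steps at CES1 and 15 to 44 steps at DPYD. In the SOX4 list the step was 0.182, and 8 of 11 folds at CES1 and 7 of 23 at DPYD were whole multiples, against 44.7% of the list, with 27 to 1190 and 194 to 688 steps. The source of the steps was not tested.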
